A study of Danio rerio with 6 samples.

Results

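The genes described here encode mitochondrial ribosomal proteins. They were taken as every row of the deposited gene table whose symbol, case ignored, begins with mrpl or mrps followed by a digit, which gave 75 of 31701 rows. Of these, 46 carry an *mrpl* symbol, for the large subunit, and 29 an *mrps* symbol, for the small subunit. The hearts came from zebrafish (*Danio rerio*) larvae at 57 to 59 hours post fertilization. Animals labelled mutant were compared with their wild-type (WT) siblings. The gene in question, going by the series title, is *wwtr1*, whose product (Taz) is the coactivator that Hippo signalling restrains. The labels give no allele, zygosity or strain. There were 3 mutant and 3 WT libraries. A library was made from 23 pooled hearts, so a value belongs to a pool and not to an animal.

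The mitochondrial ribosome is built in the matrix of the organelle from RNA encoded by the mitochondrial chromosome and proteins encoded in the nucleus, which are made in the cytosol and imported. It translates the few messenger RNAs of the mitochondrial chromosome, which encode core subunits of the respiratory chain and ATP synthase. Part of its proteins have counterparts in bacterial ribosomes, and the others are found only in mitochondria. Cardiac muscle depends on oxidative phosphorylation, and variants in several of these genes, *MRPL3* and *MRPL44* among them, are known causes of human mitochondrial cardiomyopathy.

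Values are normalised read counts as deposited, rounded to whole numbers, and they are not divided by gene length, so levels of different genes are not compared. They summed to 21068538 to 21968397 in mutant libraries and 19187058 to 25227868 in WT libraries, of which features annotated as ribosomal RNA took 40.4% to 43.9%. Transcripts of *wwtr1* stood at 128, 151 and 100 in mutant replicates 1 to 3, against 362, 416 and 471 in WT replicates 1 to 3, and fell with a log2 difference of −1.72 (standard error (SE) 0.155; limma, Benjamini-Hochberg adjusted p = 0.000251). Heart muscle markers were high in every library, with a sum over the 10 listed genes of 291982 to 307705 in mutant and 285301 to 343356 in WT hearts. Other cell types were present too. The 8 skin epithelium genes summed to 65603 to 80642 in mutant and 55750 to 88129 in WT hearts. The 14 rows of fast skeletal muscle genes summed to 30608 to 41566 in mutant and 29789 to 50005 in WT hearts. No tested gene of either group was higher or lower at an unadjusted p under 0.05. The 7 measured erythrocyte genes summed to 107765 to 186341 in mutant and 114595 to 129232 in WT hearts, and the 10 liver and yolk genes to 10807 to 19424 in mutant and 16869 to 27808 in WT hearts. The 4 epicardial genes summed to 274 to 393 in mutant and 439 to 464 in WT hearts, and the 6 endocardial and endothelial genes to 10845 to 11694 in mutant and 8968 to 10213 in WT hearts. At an unadjusted p under 0.05, 4 of the 7 erythrocyte and 3 of the 6 endocardial genes were higher in mutant hearts, and 8 of the 9 tested liver and yolk genes and 2 of the 4 epicardial genes were lower. Of all tested genes, 3.25% were higher and 3.35% lower at that p. Of the other cell groups, all 4 hatching gland genes were higher, with a median log2 difference of 1.24 and sums of 1531 to 3383 in mutant and 448 to 2502 in WT hearts, and 1 of the 6 cartilage genes was lower. None of these markers passed over all genes tested, and none stood at 0 in every library. Their part in the results on mitochondrial ribosomal proteins was not tested. In pooled whole hearts, fewer cells of a type and less RNA per cell cannot be told apart.

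All 75 genes met the minimum for testing, set at 10 in no fewer than 3 libraries. Their means over the 6 libraries ran from 49.3 for *mrps28* to 358 for *mrpl2*, with *mrpl28* alone above that at 2286. None of the 75 passed the test between mutant and WT hearts over the 18901 genes tested (limma, Benjamini-Hochberg adjusted p under 0.05), where 7 genes in all, 0.037%, did. The lowest adjusted p among them was 0.5, for *mrpl24*. The differences between genotypes were small, and most had the same sign: 62 of the 75 log2 differences lay below 0, so the mutant value was the lower, against 50.5% of all tested genes. The median log2 difference was −0.15, against −0.0029 over all tested genes, and the single values ran from −0.54 to 0.37. The median SE of a member was 0.166.

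**Figure D1:**
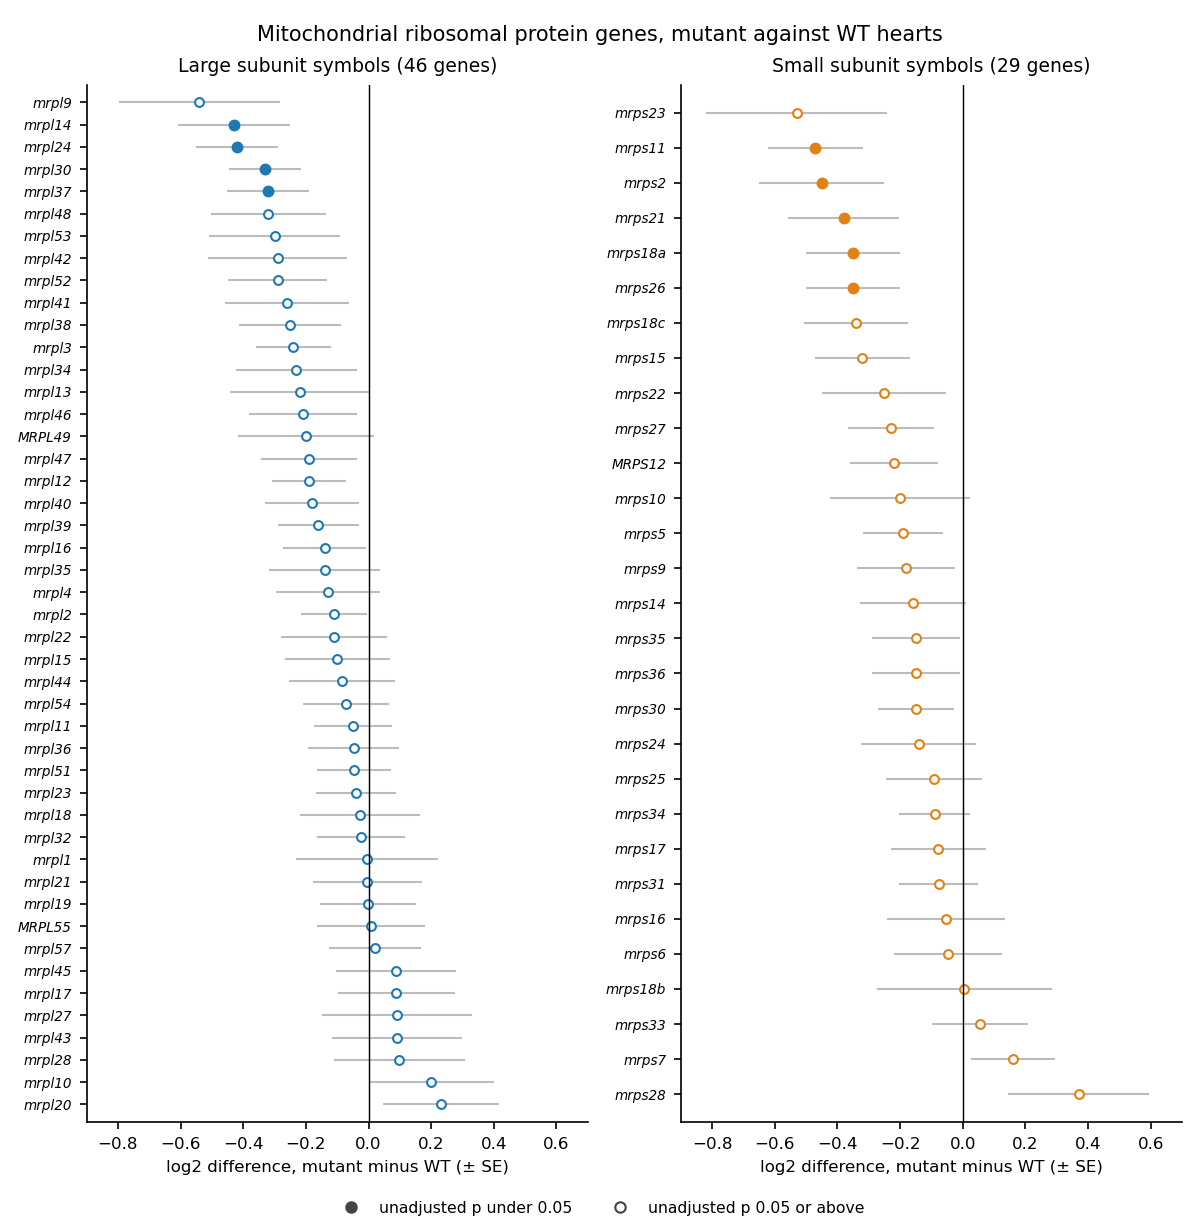
Log2 difference between mutant and WT hearts (horizontal axis, mutant minus WT, with the limma SE as bars) for each of the 46 large subunit and 29 small subunit symbols, ordered by size. Filled points mark the 9 genes with an unadjusted p under 0.05, all of them left of 0, and no gene passed after adjustment over all genes tested.

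At an unadjusted p under 0.05, 9 of the 75 genes, 12%, were lower in mutant hearts, where 3.35% of all tested genes were. On the other side 0 of the 75 were higher, where 3.25% of all tested genes were. Every mutant value lay below every WT value in 10 of the 75 genes, against 5.53% of all tested genes, and above every WT value in 1 gene, against 5.57%. Both shares of lower genes were above that of all genes in these values as deposited. These counts describe how the 75 genes lie among all genes, and the genes are not independent of each other. They depended on scaling and on 1 library. With totals outside ribosomal RNA set equal, 2 members, 2.67%, were lower at an unadjusted p under 0.05, against 2.72% of all tested genes, so the excess was gone, while 60 log2 differences were still below 0. WT replicate 1 held the highest value of 28 of the 75 genes, a count not made over all tested genes. Without it, 3 members, 4%, were lower at an unadjusted p under 0.05, close to the 3.3% of all tested genes. In that setting 56 log2 differences were below 0 and the median was −0.12.

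**Figure D2:**
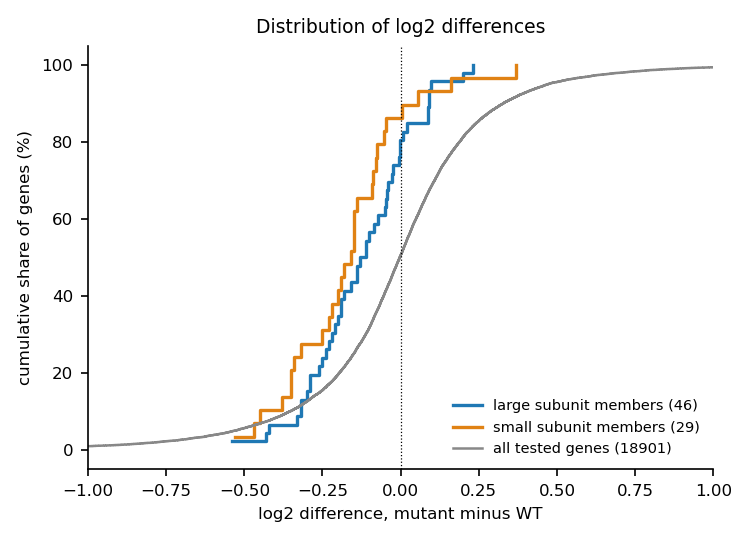
Cumulative share of genes (vertical axis, percent) against the log2 difference between mutant and WT hearts for large subunit members, small subunit members and all 18901 tested genes, drawn from −1 to 1. Both member curves lie to the left of the curve of all genes through the middle of the range, with medians of −0.12, −0.16 and −0.0029.

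The 29 small subunit symbols had a median log2 difference of −0.16, with 25 below 0. At an unadjusted p under 0.05, 5 of them, 17.2%, were lower, against 3.35% of all tested genes. This count was made with the values as deposited only. It includes *mrps18a*, and the 29 symbols also include *mrps30* and *mrps36*. As described below, none of these belongs to the small subunit. The member of this subunit with the lowest p was *mrps11* (ENSDARG00000075129; GRCz10 chromosome 7, 14266537 to 14290399, minus strand), whose product sits on the platform of the small subunit. It had 100, 99 and 85 in mutant replicates 1 to 3, against 135, 130 and 129 in WT replicates 1 to 3. The 3 WT libraries lay close together and the groups did not overlap. The log2 difference was −0.47 (SE 0.152; limma, Benjamini-Hochberg adjusted p = 0.519), and it stayed between −0.51 and −0.40 with each library left out in turn. The neighbour *mrpl46*, of the large subunit and named here after its values were seen, lies 220 bases away on the opposite strand, so the pair is arranged head to head. It had 90, 82 and 92 in mutant hearts, against 120, 98 and 89 in WT hearts, with a difference of −0.21 on the log2 scale (SE 0.173). Its WT replicate 3 lay among the mutant values.

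*mrps2* (ENSDARG00000103198, chromosome 21, 7560451 to 7566573), a counterpart of a bacterial protein, had 71, 59 and 56 in mutant hearts, against 102, 76 and 78 in WT hearts. The log2 difference was −0.45 (SE 0.199, limma adjusted p = 0.748), and WT replicate 1 was the highest library. *mrps18c* (chromosome 21, 19292211 to 19293697), also a counterpart of a bacterial protein, had 87, 82 and 92 in mutant hearts, against 122, 96 and 115 in WT hearts. The groups did not overlap there either, at a log2 difference of −0.34 (SE 0.166; limma, unadjusted p = 0.0578). Like *mrps11* and *mrps2*, the genes *mrps21* and *mrps26* had an unadjusted p under 0.05, but in both the groups overlapped. They were named here after their values were seen. *mrps21* had 90, 78 and 83 in mutant hearts, against 126, 115 and 90 in WT hearts. *mrps26*, found only in mitochondria, had 122, 154 and 148 in mutant hearts, against 190, 153 and 200 in WT hearts.

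Other small subunit genes were taken for their known roles. *MRPS12*, written in capitals in the table, encodes a protein of the decoding centre and had 133, 139 and 160 in mutant hearts, against 174, 150 and 179 in WT hearts (log2 difference −0.22, SE 0.141). *mrps7*, whose product helps to build the head of the subunit, was among the 4 small subunit symbols with a difference above 0. It had 201, 179 and 222 in mutant hearts, against 173, 166 and 199 in WT hearts (log2 difference 0.16, SE 0.135; 0.085 without mutant replicate 3). *mrps14* had 107, 87 and 116 in mutant hearts, against 121, 101 and 124 in WT hearts, and *mrps22*, in which human variants cause mitochondrial disease, had 83, 66 and 104 in mutant hearts, against 116, 89 and 94 in WT hearts. In these 4 genes the groups overlapped.

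The small subunit symbols with the highest deposited values were *mrps34*, *mrps31*, *mrps30* and *mrps25*. *mrps34* averaged 314 ± 32.1 in mutant hearts and 334 ± 21.7 in WT hearts (SD, n = 3 each), and *mrps31* averaged 260 ± 25.5 in mutant hearts and 275 ± 30.9 in WT hearts. *mrps25* averaged 209 ± 40.5 in mutant hearts and 221 ± 26.9 in WT hearts. All 3 encode proteins found only in mitochondria, and their differences were smaller than the spread between replicates. At the low end, *mrps18b* had 76, 64 and 35 in mutant hearts, against 67, 56 and 45 in WT hearts, for a log2 difference of 0.0051 with an SE of 0.280.

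*mrps28* (ENSDARG00000041538, chromosome 22, 26261235 to 26270991, plus strand) had the highest log2 difference of all 75 members and was the only member whose mutant values all lay above its WT values. It had 61, 61 and 46 in mutant hearts, against 42, 44 and 42 in WT hearts, and the log2 difference was 0.37 (SE 0.225, limma adjusted p = 0.842). The gene lies on the chromosome that carries *wwtr1*, at 38095983 to 38161452, and a link to that gene was not tested. Of the other members there, *mrpl20* had a log2 difference of 0.23 and *mrpl54* of −0.071. Both had overlapping groups and were named after their values were seen. On the opposite strand, *sde2* overlaps 8418 bases of *mrps28*. The strand setting of the authors' counting is not given, so reads of the pair may be mixed.

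Some *mrps* symbols name proteins that do not belong to the small subunit. Structures of the mammalian mitochondrial ribosome place the products of *mrps18a* and *mrps30* in the large subunit, and the gene name table calls *mrps36* *kgd4*, a component of 2-oxoglutarate dehydrogenase. *mrps18a* (chromosome 4, 5634126 to 5636596) had 139, 117 and 132 in mutant hearts, against 194, 150 and 155 in WT hearts, for a log2 difference of −0.35 (SE 0.150, limma adjusted p = 0.717) with no overlap. Its whole length of 2471 bases lies within *apex1* on the same strand, which had 425, 416 and 432 in mutant hearts, against 544, 462 and 581 in WT hearts, so the value of *mrps18a* is uncertain. *mrps30* averaged 216 ± 16 in mutant hearts and 240 ± 19.2 in WT hearts, and *mrps36* averaged 133 ± 11 in mutant hearts and 147 ± 8.5 in WT hearts (SD, n = 3 each).

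The 46 large subunit symbols had a median log2 difference of −0.12, with 37 below 0. Lower at an unadjusted p under 0.05 were 4 of them, 8.7%, against 3.35% of all tested genes, again with the values as deposited only. These counts follow the symbols, so *mrps18a* and *mrps30* are not among the 46. Whether the subunits differ was not tested. *mrpl24* (ENSDARG00000019222, chromosome 19, 7576866 to 7587209, plus strand) encodes a counterpart of a bacterial protein found near the exit of the peptide tunnel. It had 206, 174 and 221 in mutant hearts, against 283, 237 and 283 in WT hearts. The groups did not overlap, and the log2 difference of −0.42 (SE 0.132; limma, Benjamini-Hochberg adjusted p = 0.5) stayed between −0.50 and −0.32 with each library left out. *mrpl14* (ENSDARG00000068886, chromosome 13, 42550142 to 42552981), whose product faces the small subunit, had 60, 73 and 74 in mutant hearts, against 93, 90 and 95 in WT hearts. The groups did not overlap, and the log2 difference was −0.43 (SE 0.178, limma adjusted p = 0.709).

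*mrpl30*, *mrpl37*, *mrpl52* and *mrpl3* completed the 6 large subunit symbols without overlap, all lower in mutant hearts. Those 6 were 13% of the 46, against 5.53% of all tested genes. *mrpl30*, *mrpl37* and *mrpl52* were named after their values were seen. *mrpl30*, a counterpart of a bacterial protein, had 207, 212 and 220 in mutant hearts, against 274, 280 and 252 in WT hearts, for a log2 difference of −0.33 (SE 0.114). *mrpl37*, found only in mitochondria, had 193, 153 and 171 in mutant hearts, against 224, 203 and 217 in WT hearts, for a log2 difference of −0.32 (SE 0.131). Their adjusted p were 0.563 for *mrpl30* and 0.704 for *mrpl37* (limma, Benjamini-Hochberg). *mrpl52* had 86, 97 and 88 in mutant hearts, against 109, 118 and 105 in WT hearts. Its 2458 bases lie wholly within *gmpr2* on the opposite strand, so its reads may be mixed with those of *gmpr2*. *mrpl3*, which encodes a core protein of the large subunit, had 190, 179 and 196 in mutant hearts, against 230, 208 and 228 in WT hearts (log2 difference −0.24, SE 0.120). All 3 WT values lay above the highest mutant value in each of these 4 genes.

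**Figure D3:**
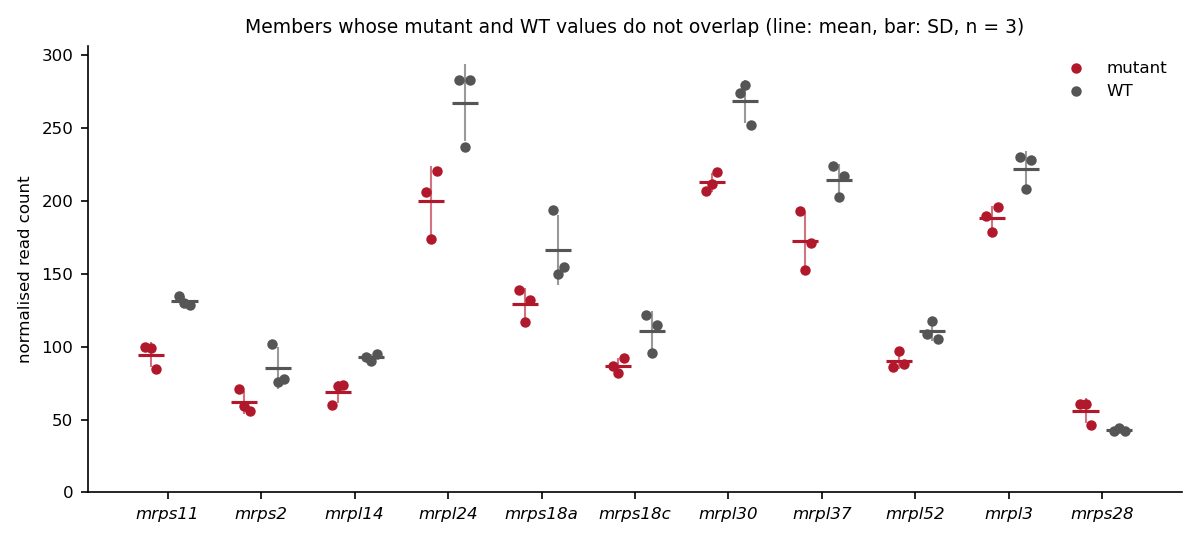
Normalised read counts (vertical axis) of the 11 members whose mutant and WT values do not overlap, with 3 mutant pools left of 3 WT pools for each gene, the mean as a line and the SD as a bar. Mutant values lie below WT values in 10 genes and above them in *mrps28*.

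The stalk of the large subunit recruits translation factors. Its base protein is encoded by *mrpl11*, which had 173, 181 and 175 in mutant hearts, against 171, 186 and 191 in WT hearts. *mrpl12*, whose product is also known to bind the mitochondrial RNA polymerase, had 336, 296 and 272 in mutant hearts, against 372, 309 and 353 in WT hearts (log2 difference −0.19, SE 0.119). Its log2 difference was −0.12 without mutant replicate 3 and −0.28 without mutant replicate 1. *mrpl10*, the scaffold of the stalk, had a higher mean in mutant hearts, at 99, 78 and 66 in mutant hearts, against 64, 69 and 75 in WT hearts (log2 difference 0.20, SE 0.199). That difference was 0.052 without mutant replicate 1 and 0.34 without mutant replicate 3. The groups overlapped in all 3 stalk genes. The cardiomyopathy gene *mrpl44* averaged 105 ± 15.3 in mutant hearts and 111 ± 11.5 in WT hearts (SD, n = 3 each).

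Among the large subunit symbols with the highest deposited values, *mrpl2*, whose product lies near the peptidyl transferase centre, averaged 345 ± 17.2 in mutant hearts and 371 ± 22.5 in WT hearts. *mrpl16* averaged 252 ± 15.9 in mutant hearts and 280 ± 48.5 in WT hearts. Its log2 difference of −0.14 was −0.085 without mutant replicate 2 and −2.9e-05 without WT replicate 1, so it rests on that WT library. Its position is overlapped on the same strand by *cul4a*, which leaves its value uncertain. *mrpl28* (ENSDARG00000057805, chromosome 15, 17192260 to 17202618) stood apart, with 2120, 2185 and 2578 in mutant hearts, against 1504, 3453 and 1875 in WT hearts. The 3 mutant libraries lay within the range of the WT libraries, where the highest and lowest differed by 2.3 times. Its log2 difference was 0.098 (SE 0.209), and −0.15 without WT replicate 1. At the low end, *mrpl9* had the lowest log2 difference of all members, −0.54 (SE 0.257, limma adjusted p = 0.755), at 56, 33 and 35 in mutant hearts, against 62, 67 and 49 in WT hearts. Mutant replicate 1 lay among the WT values there. *mrpl27* had 41, 50 and 66 in mutant hearts, against 54, 47 and 44 in WT hearts.

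Members were also grouped by origin, leaving out *MRPL55*, which was not classified, and *mrps18a*, *mrps30* and *mrps36*. The 28 large subunit genes with a bacterial counterpart had a median log2 difference of −0.10, with 23 below 0, and the 17 found only in mitochondria had −0.20, with 14 below 0. The 16 small subunit genes with a bacterial counterpart had a median of −0.18, with 14 below 0, and the 10 found only in mitochondria had −0.12, with 8 below 0. The order of these medians was opposite in the 2 subunits, and no difference between the groups was tested. The members lie on 22 chromosomes, with at most 7 on 1 of them, chromosome 19. Rows of other genes overlap 16 of the members, 7 of them on the same strand, *mrps22*, *mrps25*, *mrps18a*, *mrpl16* and *mrpl20* among the genes described above, whose values are uncertain for that reason. The others are overlapped on the opposite strand, and since the strand setting of the counting is not given, the values of *mrpl11*, *mrpl24*, *mrpl27*, *mrpl52*, *mrps18c* and *mrps28* may hold reads of a partner too. The overlap is 7181 bases for *mrpl11*, 670 for *mrpl24*, 230 for *mrps18c* and 17 for *mrpl27*. Over the 59 without such an overlap the median was −0.15, with 49 below 0. Lower at an unadjusted p under 0.05 were 7 of the 59, where 3.35% of all tested genes were lower.

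The level of each subunit was summarised in each library as the mean log2 deviation of its genes from their means over the 6 libraries. For the large subunit it was −0.030, −0.095 and −0.063 in mutant replicates 1 to 3, against 0.12, 0.025 and 0.041 in WT replicates 1 to 3. For the small subunit it was −0.026, −0.15 and −0.089 in mutant replicates, against 0.17, 0.0013 and 0.093 in WT replicates. Mutant libraries were lower than every WT library for both subunits, with TMM factors and quantile normalisation as well. With totals outside ribosomal RNA set equal they were not: the mutant libraries then spanned −0.097 to −4.4e-05 for the large and −0.15 to 0.0043 for the small subunit, and WT replicate 2 stood at −0.13 for the large and −0.15 for the small subunit. The lowest value among the 6 libraries was in a mutant library for 60 of the 75 genes and in a WT library for 13, and the others were tied between the genotypes. That count was made with the values as deposited and not over all tested genes, so it is not shown to be particular to the members.

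**Figure D4:**
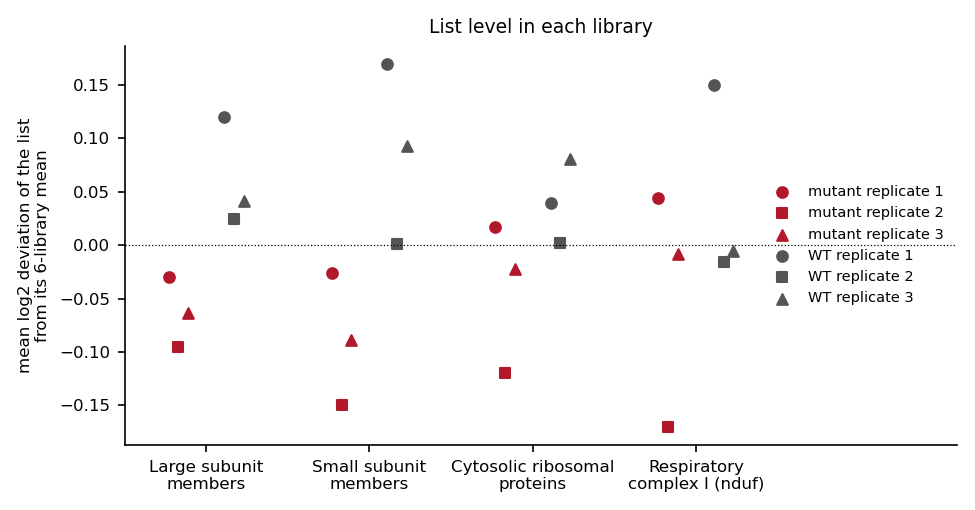
Mean log2 deviation of each list from its mean over the 6 libraries (vertical axis), for large and small subunit members, cytosolic ribosomal protein genes and complex I genes (both taken by symbol), with mutant libraries left of WT libraries and a marker for each replicate. Mutant and WT libraries do not overlap for either subunit and overlap for the cytosolic ribosomal protein and complex I genes.

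Other genes of mitochondrial translation were taken from lists of textbook knowledge. Of 7 listed ribosomal proteins with other symbols, 6 were measured, 4 of them with a log2 difference below 0 and a median of −0.092. *chchd1*, a small subunit protein named after its values were seen, had 135, 151 and 127 in mutant hearts, against 226, 157 and 165 in WT hearts, for a log2 difference of −0.39 (SE 0.159, limma adjusted p = 0.704). The groups did not overlap. *gadd45gip1*, which had the highest deposited value in that list, averaged 343 ± 30.6 in mutant hearts and 337 ± 9.85 in WT hearts (SD, n = 3 each), and *ptcd3* averaged 216 ± 22 in mutant hearts and 241 ± 9.64 in WT hearts.

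Of 18 genes listed as translation factors, 16 were measured, 15 of them with a log2 difference below 0 and a median of −0.10. In 4, 25%, every mutant value lay below every WT value, against 5.53% of all tested genes. Lower at an unadjusted p under 0.05 was 1 of the 16, 6.25%, against 3.35% of all tested genes. The elongation factor gene *tufm* had 360, 402 and 399 in mutant hearts, against 451, 427 and 431 in WT hearts (log2 difference −0.17, SE 0.0995; limma adjusted p = 0.826). The list takes in *lrpprc*, whose product stabilises mitochondrial messenger RNA and is not a translation factor. *lrpprc* had 832, 788 and 833 in mutant hearts, against 865, 858 and 936 in WT hearts (log2 difference −0.12, SE 0.0865). In both genes all mutant values were below all WT values. The 23 tested genes of ribosome assembly and rRNA modification had a median of −0.084, with 18 below 0, and the 18 tested genes listed as mitochondrial aminoacyl-tRNA synthetases a median of −0.087, with 11 below 0. The synthetase list takes in *gatb* and *qrsl1*, which encode no synthetase. *MALSU1*, an assembly factor, averaged 193 ± 23.9 in mutant hearts and 197 ± 10.4 in WT hearts, and the RNA helicase gene *DHX30* averaged 139 ± 11.8 in mutant hearts and 165 ± 18.3 in WT hearts (SD, n = 3 each). Of the synthetase genes, *hars* had 305, 277 and 316 in mutant hearts, against 316, 354 and 393 in WT hearts, and *iars2* had 260, 211 and 213 in mutant hearts, against 208, 252 and 269 in WT hearts. None of these genes passed over all genes tested, and the lowest adjusted p over the 4 lists was 0.564 (limma).

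Genes of mitochondrial transcription and RNA processing had a median of −0.046 over 15 genes, with 9 below 0. The transcription factor gene *tfam* had 177, 159 and 163 in mutant hearts, against 177, 185 and 185 in WT hearts, and *tfb2m* had 238, 214 and 194 in mutant hearts, against 277, 174 and 249 in WT hearts. The 15 tested nuclear respiratory factors and coactivators, which are known to drive genes for mitochondrial proteins in mammals, had a median of −0.012, with 8 below 0. In 3, 20%, every mutant value lay below every WT value, against 5.53% of all tested genes. At an unadjusted p under 0.05, 2, 13.3%, were lower, against 3.35%. They were *gabpb1*, described below, and *myca*, named after its values were seen (log2 difference −0.42, SE 0.173). *myca* is also among the 3 without overlap. The list takes in genes of other transcription factors, *myca*, *mycb*, *yy1a* and *yy1b* among them. *ppargc1b* averaged 713 ± 85 in mutant hearts and 735 ± 77 in WT hearts, and *esrrga* averaged 590 ± 51.6 in mutant hearts and 534 ± 47.8 in WT hearts (SD, n = 3 each). The 2 rows annotated as mitochondrial rRNA, of 1683 and 952 bases, did not pass. The longer had 784005, 1016976 and 727260 in mutant hearts, against 1060111, 1082853 and 872426 in WT hearts, for a log2 difference of −0.26 (SE 0.301). The shorter had 621362, 581667 and 584937 in mutant hearts, against 696170, 618043 and 567640 in WT hearts.

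**Figure D5:**
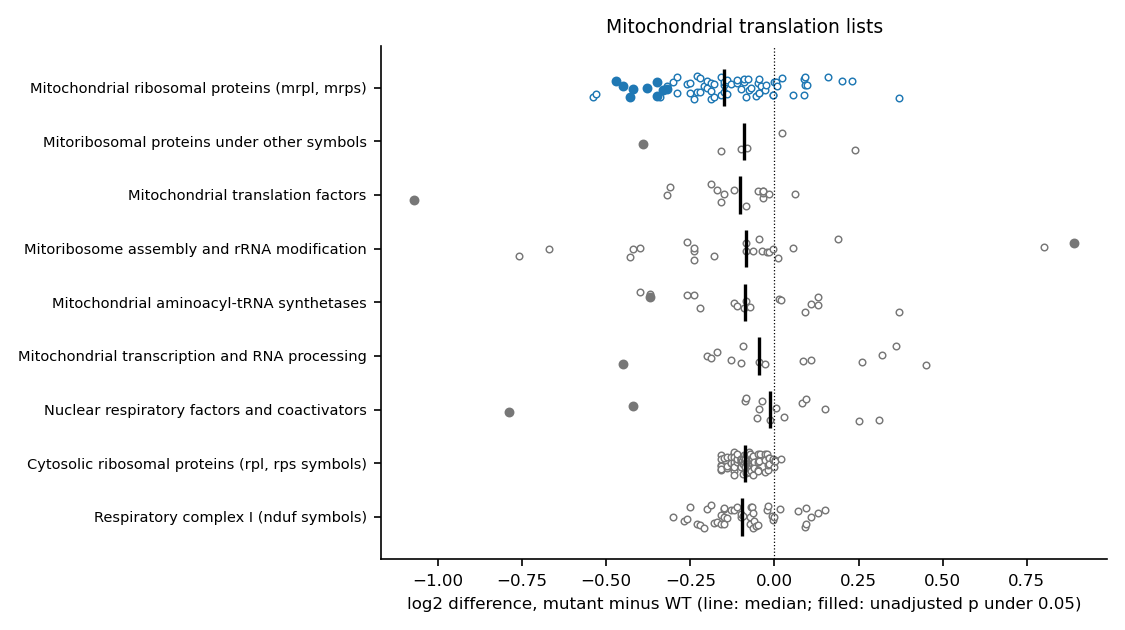
Log2 difference between mutant and WT hearts (horizontal axis) for each tested gene of 9 lists, with the median as a line and filled points for an unadjusted p under 0.05. The line of each list lies left of 0, from −0.15 for the mitochondrial ribosomal proteins to −0.012 for the nuclear respiratory factors and coactivators.

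Cytosolic ribosomal protein genes and genes of respiratory complex I, taken by their symbols, also lay mostly below 0. The symbols take in some other genes: *rps19bp1*, which encodes no ribosomal protein, the *ndufaf* assembly factors, and *ndufa4* and *ndufa4l*, assigned to complex IV. Of 84 tested cytosolic ribosomal protein genes, 81 had a log2 difference below 0, with a median of −0.086, and of 46 complex I genes 38 did, with a median of −0.098. Every mutant value lay below every WT value in 22 of the 84 cytosolic ribosomal protein genes, 26.2%, and in 3 of the 46 complex I genes, 6.52%, beside 13.3% of the mitochondrial ribosomal protein genes and 5.53% of all tested genes. Such shares were taken, for every list, from the values as deposited only. At an unadjusted p under 0.05 there were 0 in either list. Of the 75 mitochondrial ribosomal protein genes 9, 12%, were lower, against 3.35% of all tested genes. That count was 2 with totals outside ribosomal RNA set equal and 3 without WT replicate 1. Whether the lists differ from each other was not tested, so a lower value in mutant hearts is not shown to be particular to the mitochondrial ribosome.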

How the data were processed

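RNA of pooled hearts was sequenced after a Clontech low-input preparation, per the labels' protocols. Per the submitters' processing notes the tools include STAR 2.4.0a and featureCounts 1.4.5-p1, with the danRer10 (GRCz10) build. How reads were assigned by strand and how libraries were scaled is not stated in these sources. The deposited values are a score, read counts scaled between libraries and rounded to whole numbers: in 3 libraries 5 to 12 whole numbers between 1 and 100 never occur, as after multiplication by a factor above 1. They are not raw counts, so no count model was run, and intervals from counts were not given.

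Values were analysed as log2(value + 1), which understates the change of low genes. Rows that reached 10 in 3 or more libraries were fitted by limma 3.58.1 (R 4.3.3), mutant against WT, with a variance trend and Benjamini-Hochberg adjustment over 18901 genes. Groups came from the sample titles. The labels name no batch. On simulated data for these 18901 genes, 68% of 50 genes changed 1.5-fold, 92% changed 2-fold and 100% changed 3-fold or 4-fold were recovered. There 14 unchanged genes were called. Changes were placed only in genes with a mean of at least 50. Genes of the same mean were given the same spread, without shifts of whole libraries. The shares therefore do not give the chance of finding a change of that size in a member.

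The members and gene lists were chosen with earlier results of these data known. Named are members past the test, up to 6 in each direction with the largest difference among those with a mean of at least 50 and no overlap, the 4 highest and 2 lowest by mean in each subunit, 12 landmark genes and, from each other list, those past the test or the 2 with the highest mean; others are marked as named after their values were seen. The assembly and synthetase lists share *yars2*. The motif search that was planned on promoters was not run, since no promoter sequences were used here. Gene symbols are those of the deposited table; a separate name table held 73 of the 75 member identifiers.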

Additional observations from a re-analysis of the deposited data

How the results depend on the processing

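No mitochondrial ribosomal protein gene passed over all genes under any of the 16 other settings tried, with a lowest adjusted p among members of 0.202 (without WT replicate 2) to 0.836 (totals outside ribosomal RNA set equal). The medians stayed below 0 in all of them, between −0.19 and −0.12 for all members, −0.16 and −0.098 for the large and −0.22 and −0.14 for the small subunit, and 56 to 64 members had a log2 difference below 0. The number of members lower at an unadjusted p under 0.05 was 9 as reported (12% of members, 3.35% of all genes). It was 2 with totals outside ribosomal RNA set equal (2.67% of members, 2.72% of all genes). With a library left out it was 3 to 13. The 3 were without WT replicate 1 (4% of members, 3.3% of all genes). The 13 were without WT replicate 2 (17.3% of members, 3.28% of all genes). The number higher, 0 as reported, was 1 with no variance trend and 1 without WT replicate 2. The number of genes passing, 7 as reported, was 68 with totals outside ribosomal RNA set equal (25 higher, 43 lower), 0 with no variance trend (1176 at an unadjusted p under 0.05), and 5 to 46 with a library left out, 11 without WT replicate 1 and 46 without WT replicate 2. The causes were not tested. With the replicate number as a block, 15 genes passed (8 higher, 7 lower) and 0 members passed. In that setting 10 members, 13.3%, were lower at an unadjusted p under 0.05, against 3.39% of all genes. Same-numbered mutant and WT libraries correlated at 0.0217, −0.0224 and −0.0178 in their deviations from the group means. The numbers were therefore not taken to pair the libraries. Of 431 values of 27 named members, 422 kept their direction and side of the threshold and 9 changed sign, none past the threshold. *mrps18b* was −0.058 with library weights, −0.22 without mutant replicate 1, −0.096 without mutant replicate 2 and −0.14 without WT replicate 3. *mrps25* was 0.056 without mutant replicate 2. *mrpl27* was −0.087, *mrps31* 0.0022 and *mrpl44* 0.041 without mutant replicate 3, and *mrpl28* was −0.15 without WT replicate 1. With a library left out, the other end of the range was 0.33 for *mrps18b*, −0.23 for *mrps25*, 0.25 for *mrpl27*, −0.17 for *mrps31* and 0.44 for *mrpl28*. Leaving out members with an overlapping row was chosen after seeing the data. Values near 100 in libraries of this depth limit what a comparison of 3 against 3 can show, and the SE of a member was 0.166 in the median.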

Other observations

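The symbol rule left out a row that the gene name table calls *MRPL33*. It had 90, 111 and 73 in mutant hearts, against 137, 99 and 90 in WT hearts, for a log2 difference of −0.25 (SE 0.203, limma adjusted p = 0.901). The RNA processing gene *hsd17b10*, a subunit of the mitochondrial ribonuclease P and also an enzyme of isoleucine breakdown, had 124, 132 and 111 in mutant hearts, against 169, 166 and 167 in WT hearts. Its log2 difference was −0.45 (SE 0.138, limma adjusted p = 0.486). *gabpb1*, a subunit of a nuclear respiratory factor, had 31, 28 and 45 in mutant hearts, against 64, 56 and 59 in WT hearts, for a log2 difference of −0.79 (SE 0.248, limma adjusted p = 0.496). The release factor gene *mtrf1* had 22, 16 and 9 in mutant hearts, against 33, 37 and 27 in WT hearts, for a log2 difference of −1.07 (SE 0.367, limma adjusted p = 0.564). The rRNA methyltransferase gene *mrm1* lay on the other side, with 19, 16 and 24 in mutant hearts, against 11, 7 and 13 in WT hearts (log2 difference 0.89, SE 0.408, limma adjusted p = 0.754). In these last 4 genes the mutant and WT values did not overlap, and all 5 were chosen after their values were seen.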
